A study of Mus musculus with 2 samples.

Results

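The keratin and keratin-associated protein genes are the autosomal protein-coding genes of GENCODE vM21 whose symbols begin with Krt and a number, or with Krtap. There are 110 of them among 20807 autosomal protein-coding genes of the mouse genome (GRCm38, mm10). They were chosen by symbol and not by any measured level. They were divided into 3 simple-epithelial keratin genes (Krt8, Krt18 and Krt19), 50 other keratin genes and 57 keratin-associated protein genes (Krtap genes). For each gene, the promoter was taken as the 2 kb upstream of its outermost annotated start and the body as its whole span of exons and introns.

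Keratins are the intermediate filament proteins of epithelial cells, and each filament is built from pairs of an acidic type I keratin and a basic type II keratin. Krt8 and Krt18 form the pair of simple, single-layered epithelia, whereas other pairs mark the layers of stratified epithelia, the inner root sheath and the hair shaft. Krtap genes encode the small proteins that embed keratin filaments in the hair shaft. In mammalian DNA, cytosines of CpG dyads may be unmodified (C), methylated (mC, written M) or hydroxymethylated (hmC, written H, the product of oxidation of mC by TET enzymes). CpG-rich promoters are mostly unmodified in embryonic stem cells, whereas CpG-poor promoters are often methylated.

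The series holds SCoTCH-seq data of genomic DNA from E14 mouse embryonic stem cells (mESCs) grown with serum and LIF, in 2 replicates of 1 condition and with no treatment or comparison group. SCoTCH-seq tethers both strands of a DNA fragment with a hairpin, so that each read pair gives the state of both strands of a CpG. The 9 CpG states were grouped as CC (unmodified on both strands), MM (methylated on both), MC/CM (hemimethylated), HC/CH (hydroxymethylated on 1 strand and unmodified on the other), HM/MH and HH. The replicates came from different passages of 1 cell line, so their spread does not cover different lines or animals, and no transcript was measured with which the cell type label could be checked against marker genes.

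A level is the percentage of all calls in a region that were of a given state, as called and without correction. Autosomal CpG sites carried a mean of 10.6 calls in replicate 1 (13366464 sites) and 6.37 calls in replicate 2 (4882356 sites), so values of replicate 2 are coarser. Methylated lambda DNA, which should hold no hmC, was called HM/MH at 3.88% in replicate 1 and 0.340% in replicate 2, and HC/CH at 0.153% and 0.0863%. Hemimethylated synthetic duplexes were called HC/CH at 3.5% and 0.607%, and MC/CM made up 12.2% and 13.3% of body calls of the other keratins. Confidence intervals (CIs) at 95% were computed by the exact Clopper-Pearson method, and they account for counting error alone. They treat calls as independent, although a read pair can span several CpG sites, so they may be too narrow. Where a count was 0, the level it allows, if given, is 3 calls of the total. Levels are given with replicate 1 first, and errors are SDs of n = 2.

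Of the reference CpGs in keratin promoters, 77.5% were covered in at least 1 replicate for the other keratins, 81.7% for the Krtap genes and 71.4% for the simple-epithelial keratins, against 58.9% for promoters of all genes. In bodies, these shares were 70.5%, 59.8% and 66.4%, against 70.6%. With a minimum of 5 CpG sites in each replicate, 61 of the 110 genes had a promoter level, 60 had a body level and 88 had a level for both regions together. The short Krtap genes, with a median span of 892 bp against 6551.5 bp for the other keratins, passed this minimum for the body in 9 of 57 genes and for the promoter in 22. Krtap16-3 had no CpG site in either replicate.

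Most of these genes lie in clusters. The type I keratins outside Krt18 and Krt19 (26 genes) lie at chr11:99232761-100269871, all on the minus strand, and the type II keratins outside Krt8 (24 genes) at chr15:101347444-101954287, with 21 on the minus strand. Of the Krtap genes, 23 lie at chr11:99550130-99993994 between type I keratins, 24 at chr16:88610705-89571183, 5 on chromosome 7, 3 on chromosome 10 and 2 on chromosome 1. Krt8 (ENSMUSG00000049382.10, chr15:101996698-102004482, minus strand) and Krt18 (ENSMUSG00000023043.7, chr15:102028180-102032027, plus strand) are neighbours, and Krt19 (ENSMUSG00000020911.14, chr11:100140810-100148665, minus strand) lies within the type I cluster.

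The start regions of 6 genes show how far CpG content and CpG state varied within the family, and these genes were chosen after their levels were seen. The sequences are those of RefSeq (GRCm38.p6), from 250 bases before to 50 bases after the RefSeq start, 5′ to 3′ on the strand of the gene, with each CpG in capitals. Start regions in the RefSeq set used here were matched for 87 of the 110 genes (88 start regions), and those of Krt15, Krt17 and Krt19 were not used here. The first pair belongs to simple-epithelial keratins, namely Krt18 (chr15:102027966-102028265, plus strand, 17 CpGs) and Krt8 (chr15:102004293-102004592, minus strand, 6 CpGs).
Krt18: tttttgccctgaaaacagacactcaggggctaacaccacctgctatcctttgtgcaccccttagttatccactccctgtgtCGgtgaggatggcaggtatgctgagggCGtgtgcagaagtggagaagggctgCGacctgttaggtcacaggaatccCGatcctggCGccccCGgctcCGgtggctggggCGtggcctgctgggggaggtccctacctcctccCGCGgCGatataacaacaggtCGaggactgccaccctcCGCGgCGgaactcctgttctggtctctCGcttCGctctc
Krt8: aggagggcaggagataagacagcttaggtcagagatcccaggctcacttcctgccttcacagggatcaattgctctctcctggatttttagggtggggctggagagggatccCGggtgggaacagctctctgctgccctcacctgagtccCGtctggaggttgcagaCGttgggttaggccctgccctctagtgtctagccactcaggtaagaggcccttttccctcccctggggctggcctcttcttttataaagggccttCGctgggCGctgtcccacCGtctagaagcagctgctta
In the Krt18 start region, 99 of 101 calls at 14 CpG sites were CC in replicate 1 and all 6 calls at 1 site in replicate 2. In that of Krt8, 45 of 49 calls were CC in replicate 1 and 3 were HC/CH, and replicate 2 had no site there. Both start regions were thus almost free of methylation where they were covered.

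The next pair belongs to type I keratins, Krt28 of the inner root sheath (chr11:99374854-99375153, minus strand, 10 CpGs) and Krt42, which is expressed in the nail (chr11:100269902-100270201, minus strand, 2 CpGs).
Krt28: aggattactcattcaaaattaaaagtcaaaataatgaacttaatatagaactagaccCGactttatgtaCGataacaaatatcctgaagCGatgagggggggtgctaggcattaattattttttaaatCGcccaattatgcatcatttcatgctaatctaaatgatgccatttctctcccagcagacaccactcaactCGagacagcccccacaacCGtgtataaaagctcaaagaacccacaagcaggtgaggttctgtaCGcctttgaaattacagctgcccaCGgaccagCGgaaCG
Krt42: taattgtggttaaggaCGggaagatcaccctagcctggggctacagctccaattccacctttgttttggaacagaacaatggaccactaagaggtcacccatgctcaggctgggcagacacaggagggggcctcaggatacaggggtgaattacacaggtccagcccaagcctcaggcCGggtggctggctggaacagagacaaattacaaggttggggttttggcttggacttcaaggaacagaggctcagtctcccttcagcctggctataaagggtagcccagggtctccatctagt
The Krt28 start region, although CpG-rich for a keratin, had a CC level of 24.1% (87 calls at 10 sites) in replicate 1 and 80.0% in replicate 2, where it rested on 10 calls at 2 sites. In the Krt42 start region, 3 of 13 calls were HC/CH in replicate 1 and 1 of 5 in replicate 2. The replicates thus lay far apart at Krt28, but over unlike sets of sites, and the values of Krt42 rested on few calls. Over the 2 kb upstream, Krt28 had a CC level of 19.5% and 35.6%.

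The last pair belongs to Krtap genes, Krtap5-5 (chr7:142229922-142230221, minus strand, 3 CpGs) and Krtap24-1 (chr16:88612230-88612529, minus strand, 9 CpGs).
Krtap5-5: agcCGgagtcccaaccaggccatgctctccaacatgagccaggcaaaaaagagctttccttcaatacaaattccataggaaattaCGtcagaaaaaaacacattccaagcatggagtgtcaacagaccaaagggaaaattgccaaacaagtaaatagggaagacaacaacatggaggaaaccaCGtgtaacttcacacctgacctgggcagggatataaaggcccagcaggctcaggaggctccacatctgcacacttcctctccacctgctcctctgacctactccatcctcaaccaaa
Krtap24-1: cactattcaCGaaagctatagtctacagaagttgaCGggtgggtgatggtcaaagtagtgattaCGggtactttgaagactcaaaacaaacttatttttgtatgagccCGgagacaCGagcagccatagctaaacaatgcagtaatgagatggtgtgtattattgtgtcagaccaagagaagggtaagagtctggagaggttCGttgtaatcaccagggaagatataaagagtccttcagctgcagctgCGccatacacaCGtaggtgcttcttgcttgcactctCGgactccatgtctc
At the 3 CpGs of Krtap5-5, 7 of 36 calls were HC/CH in replicate 1 and 5 of 18 in replicate 2, and CC made up 47.2% and 27.8%. At Krtap24-1, 0 of 92 and 0 of 22 calls were CC, which allows levels of up to 3.26% and 13.6%, and MM made up 82.6% and 95.5%. Krtap24-1 holds 3 times as many CpGs as Krtap5-5 in this window and was almost wholly methylated.

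Across the family, the start regions were poor in CpGs. The median was 5 CpGs in 300 bases for the other keratins and 2 for the Krtap genes, against 7 for all 31396 RefSeq promoter windows. At least 10 CpGs were present in 4 of 88 windows (4.55%) against 44.0% of all windows, and 10 of 51 Krtap windows (19.6%) held no CpG against 5.25% of all. The letters TATAAA, searched on either strand, were found in 42 of 51 Krtap windows (82.4%) and 18 of 35 windows of other keratins (51.4%), against 13.6% of all windows. The letters GGGCGG, again on either strand, were found in 2 member windows (2.27%), those of Krt7 and Krt75, against 36.0%. A match of letters is a description and not a measured binding site.

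Promoters of the Krt8, Krt18 and Krt19 group were unmodified in about the same share of calls as promoters of all genes, and those of the other keratins and the Krtap genes were mostly methylated. The promoter CC level was 56.6% and 46.4% for the simple-epithelial keratins (51.5% ± 7.19), where it rested on 599 and 84 calls (CIs of 52.5–60.6% and 35.5–57.6%). It was 18.1% and 13.7% for the other keratins (15.9% ± 3.13, CIs of 17.3–18.9% and 12.2–15.2%). The Krtap promoters had the lowest level, with 12.9% and 9.09% (11% ± 2.70, CIs of 12.1–13.7% and 7.62–10.7%). All genes together had 57.3% and 54.8%. The order of the subsets was the same in both replicates, and the replicate values of the simple-epithelial subset did not overlap those of the others, whereas the lower replicate of the other keratins (13.7%) lay close to the higher replicate of the Krtap genes (12.9%). No test between samples could be made, since both replicates belong to the same condition.

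The calls that were not CC were mainly MM. The promoter MM level was 59.0% and 65.0% for the other keratins and 64.5% and 69.9% for the Krtap genes, against 28.4% and 30.5% for all genes and 20.2% and 32.1% for the simple-epithelial keratins. Hemimethylated MC/CM came next, with 13.4% and 15.1% for the other keratins and 15.7% and 17.4% for the Krtap genes, against 7.73% and 8.84% for all genes. As a share of the calls other than CC, promoter MC/CM was 16.4% and 17.5% for the other keratins and 18.1% and 19.1% for the Krtap genes. All genes had 18.1% and 19.5%, so neither subset was above them on that scale. In bodies, MM was at most 66.8% in any subset, as the plot of compositions shows. The body CC level was 48.2% and 28.8% for the simple-epithelial keratins, 18.3% and 15.7% for the other keratins and 15.1% and 12.8% for the Krtap genes, against 23.6% and 20.6% for all genes. The drop of the simple-epithelial value from replicate 1 to replicate 2 was far larger than that of any other subset, and this body level is therefore known only roughly.

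**Figure D1:**
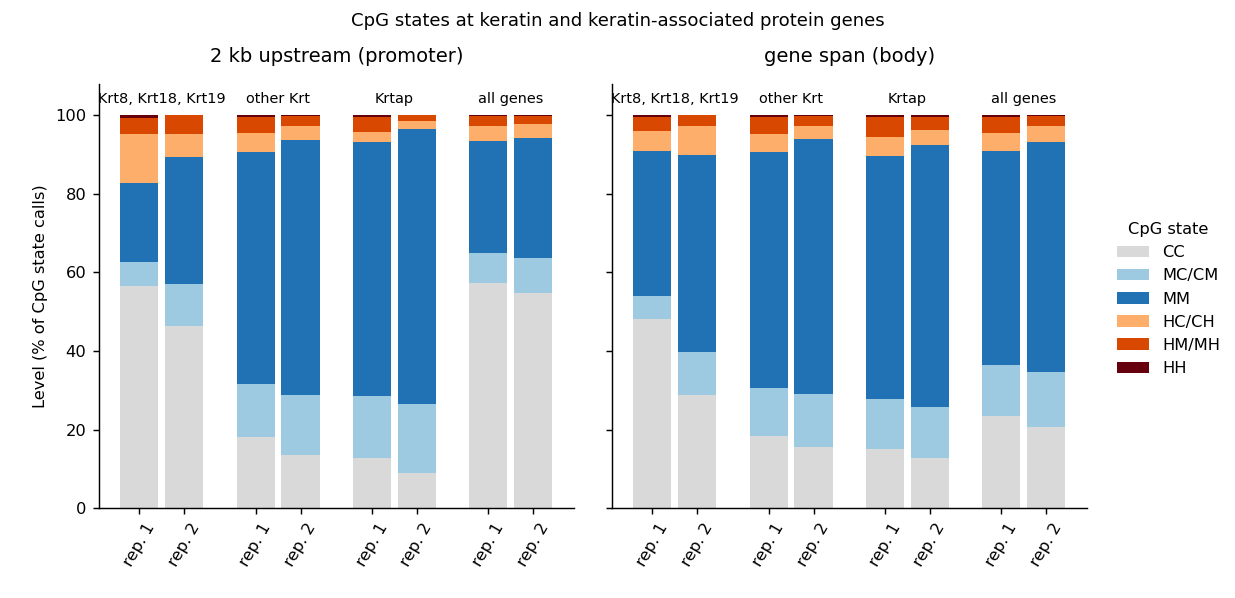
Stacked bars give the level of each group of CpG states (% of CpG state calls) in the 2 kb upstream and in the gene span, for the 3 subsets and for all genes, with 1 bar for each replicate. In the upstream panel, the other keratins (18.1% and 13.7% CC) and the Krtap genes (12.9% and 9.09%) have short CC bars beside all genes (57.3% and 54.8%).

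Gene by gene, a promoter CC level of at least 50% in both replicates was reached by 2 of the 61 measured members, Krt18 and Krt17, against 54.2% of the 13379 genes measured. The median promoter CC level was 13.4% and 8.70% for the 37 measured other keratins, with a range of 4.84–89.95% and 0–84.1%, and 8.90% and 5.48% for the 22 Krtap genes, against 62.7% and 58.6% for all measured genes. Type I and type II keratins had similar medians, of 13.7% and 8.33% for type I and 13.3% and 9.47% for type II. The measured promoters held a median of 25 reference CpGs for the other keratins and 17.5 for the Krtap genes, against 38 for all genes. CpG number thus differed between the lists together with the CC level, and its part in the result was not tested.

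Related gene lists, chosen as families by function, gave values for comparison. Non-keratin intermediate filament genes had a median promoter CC level of 57.2% and 43.1%. In this list 4 of 11 measured genes (Vim, Lmna, Nefh and Nefl) reached 50% in both replicates, against 54.2% of all measured genes. Genes of the desmosomal plaque and the cornified envelope, to which keratin filaments are anchored, had 43.7% and 38.6% (7 of 10 measured, with Jup at 50% or more). Genes of the epidermal differentiation complex, which encode proteins of the cornified layer, had 14.7% and 13.5%, but only 3 of 45 were measured. The medians of the other keratins and of the Krtap genes lay below that of the non-keratin intermediate filament genes in both replicates.

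Krt8, Krt18 and Krt19 were each partly unmodified upstream. The promoter CC level of Krt18 was 56.7% (CI 50.7–62.6%, 31 sites) and 63.2% (CI 46.0–78.2%, 7 sites). For Krt19, the type I keratin that lacks most of the tail domain, it was 60.2% (CI 53.4–66.7%, 22 sites) and 38.9% (CI 23.1–56.5%, 6 sites). For Krt8 it was 47.9% (CI 37.6–58.4%, 12 sites) and 10.0% in replicate 2, where 2 sites gave 10 calls. The CIs of the replicates overlapped for each gene, and Krt8 did not reach the minimum of 5 sites in replicate 2.

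In the first 500 bp of the gene, Krt18 had a CC level of 98.5% and 90% and Krt8 had 81.0% and 80.0%, the last at 1 site, and both were above their upstream levels. Krt19 had 40.4% (3 sites) and 33.3% (2 sites) there, below its upstream level. The outermost annotated start of Krt19 lies 2545 bp from that of its principal transcript. Within 500 bp either side of the principal start, the CC level of Krt19 was 93.5% (22 sites) and 72.0% (5 sites), that of Krt18 was 95.3% and 94.6% and that of Krt8 was 65.3% and 50.0%, the last at 2 sites. In this window, which was chosen after the levels were seen, 31 members had at least 5 sites in each replicate. Of these, 4 had a CC level of at least 50% in both, against 87.0% of the 9740 genes measured in the same window, namely Krt18, Krt19, Krt17 (66.7% and 80.4%) and Krt222 (86.0% and 85.1%). The principal start was the outermost start in 105 of the 110 genes, and besides Krt19 only Krt7 differed by more than 1 kb (1359 bp).

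**Figure D2:**
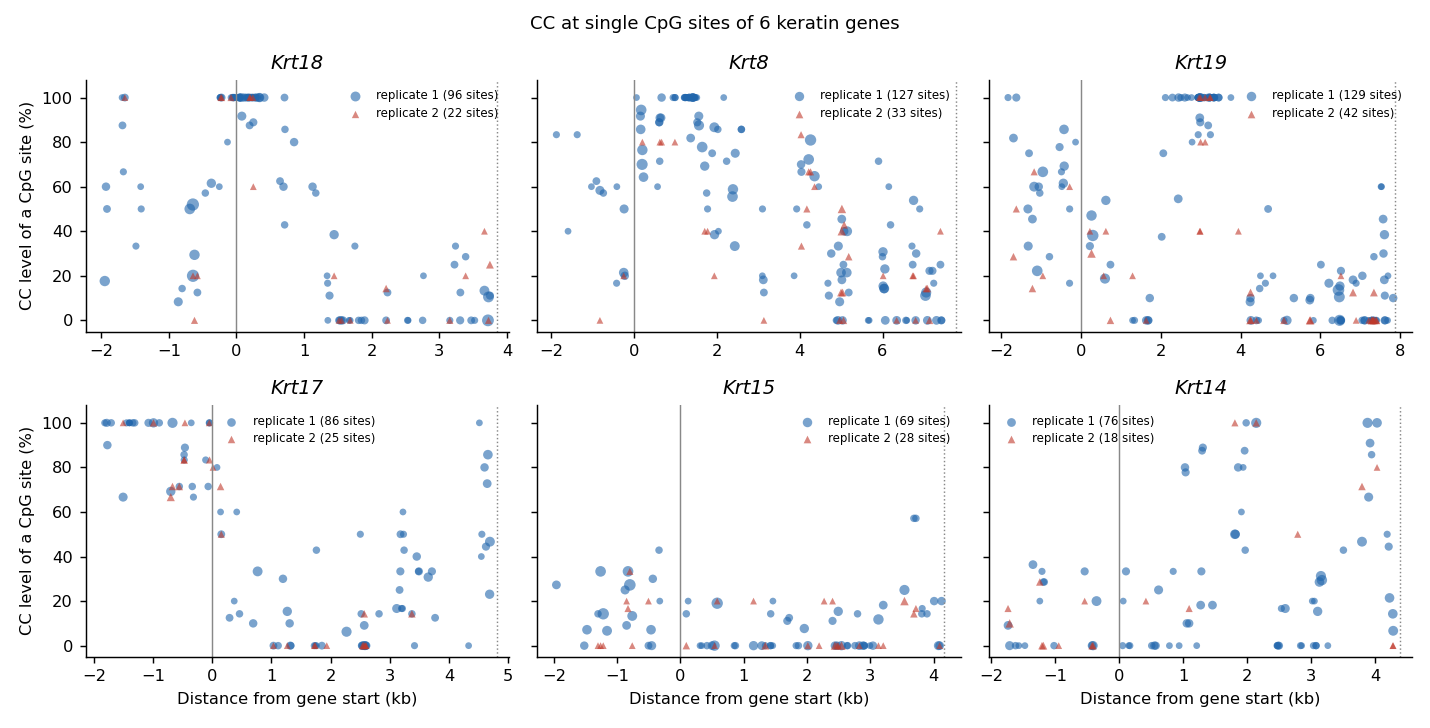
Each point is a CpG site of Krt8, Krt18, Krt19, Krt14, Krt15 or Krt17, with its distance from the outermost gene start (kb) on the x axis, its CC level (%) on the y axis, its size set by its calls and its shade by replicate. Sites near the start of Krt18 and upstream of Krt17 lie near the top, while those upstream of Krt14 and Krt15 lie mostly near the bottom, with promoter CC levels of 13.7% and 8.06% for Krt14 and 17.8% and 11.9% for Krt15.

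In Krt5, Krt14 and Krt15 of the basal epidermis, most promoter calls were modified. Krt5, the type II keratin of the basal layer, had a promoter CC level of 10.8% in replicate 1 and 0 of 29 calls in replicate 2, which allows up to 10.3%, and a body level of 10.3% and 8.04%. Its partner Krt14 had 13.7% (CI 8.35–20.8%) and 8.06% (CI 2.67–17.8%) in the promoter. In the body of Krt14 the CC level was 37.4% (CI 33.4–41.6%) and 51.9% (CI 37.6–66.0%), so that its body was less modified than its promoter in each replicate. Krt15, a basal type I keratin and a marker of hair follicle stem cells, had 17.8% and 11.9% in the promoter and 8.24% and 6.40% in the body.

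Of the suprabasal pair, Krt1 had a promoter CC level of 13.9% and 3.03%, and a body level of 22.2% and 39.5%. Krt10 stood apart with 57.8% (CI 53.9–61.6%) and 55.1% (CI 47.4–62.6%) in the body, the highest body CC level among the 48 measured other keratins in each replicate. Its promoter had 43.0% at 15 sites and 25.0% at 1 site. Among keratins induced at wound edges, Krt6a had 12.7% and 8.20% in the promoter and Krt16 had 14.4% and 8.33%. Krt17, which is also made in hair follicles, had 89.95% (CI 85.1–93.7%, 27 sites) and 84.1% (CI 72.7–92.1%, 10 sites), the highest promoter CC level of any measured member. Krt17 and Krt16 are neighbours, with spans at chr11:100256217-100261029 and chr11:100246091-100248902, and their promoter CIs did not overlap in either replicate.

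Among markers of internal epithelia outside the simple-epithelial subset, Krt20 of the intestinal and urothelial surface had a promoter CC level of 21.7% and 17.4%, and Krt12 of the cornea had 11.3% and 15.1%. Krt4 and Krt13, the pair of the oral and oesophageal lining, had 13.2% and 13.0% for Krt4, and for Krt13 11.3% at 7 sites in replicate 1 and 0 of 16 calls in replicate 2, which allows up to 18.8%. Krt7, a type II keratin of ducts, had 8 sites in replicate 1 (13.0%) and 1 in replicate 2, and its body level was 18.8% and 9.23%. Within 500 bp either side of its principal start, Krt7 had 56.7% at 21 sites in replicate 1 and no site in replicate 2. In the first 500 bp, Krt4 (53.5% and 50.0%), Krt12 (40.6% and 40.3%) and Krt222 (80.0% and 84.3%) had CC levels above those of their 2 kb upstream.

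Krt71 of the inner root sheath had a promoter CC level of 10.7% and 11.54%, and the hair keratins Krt31 and Krt81 had 12.8% and 13.3% (7 and 4 sites) and 17.5% and 10.3%. Krt36, a type I hair keratin, had 4.84% and 5.41%, the lowest among the keratins when ranked on the higher replicate. Ranked next below Krt17 among the keratins outside the simple-epithelial subset stood Krt222, a keratin-like type I gene, with 53.0% (CI 46.4–59.5%) and 41.3% (CI 29.0–54.4%), Krt42 with 65.4% (CI 57.3–72.9%) and 41.0% (CI 25.6–57.9%), and the type II hair keratin Krt86 with 24.6% and 29.4%. The CIs of Krt222 and Krt42 overlapped in each replicate.

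**Figure D3:**
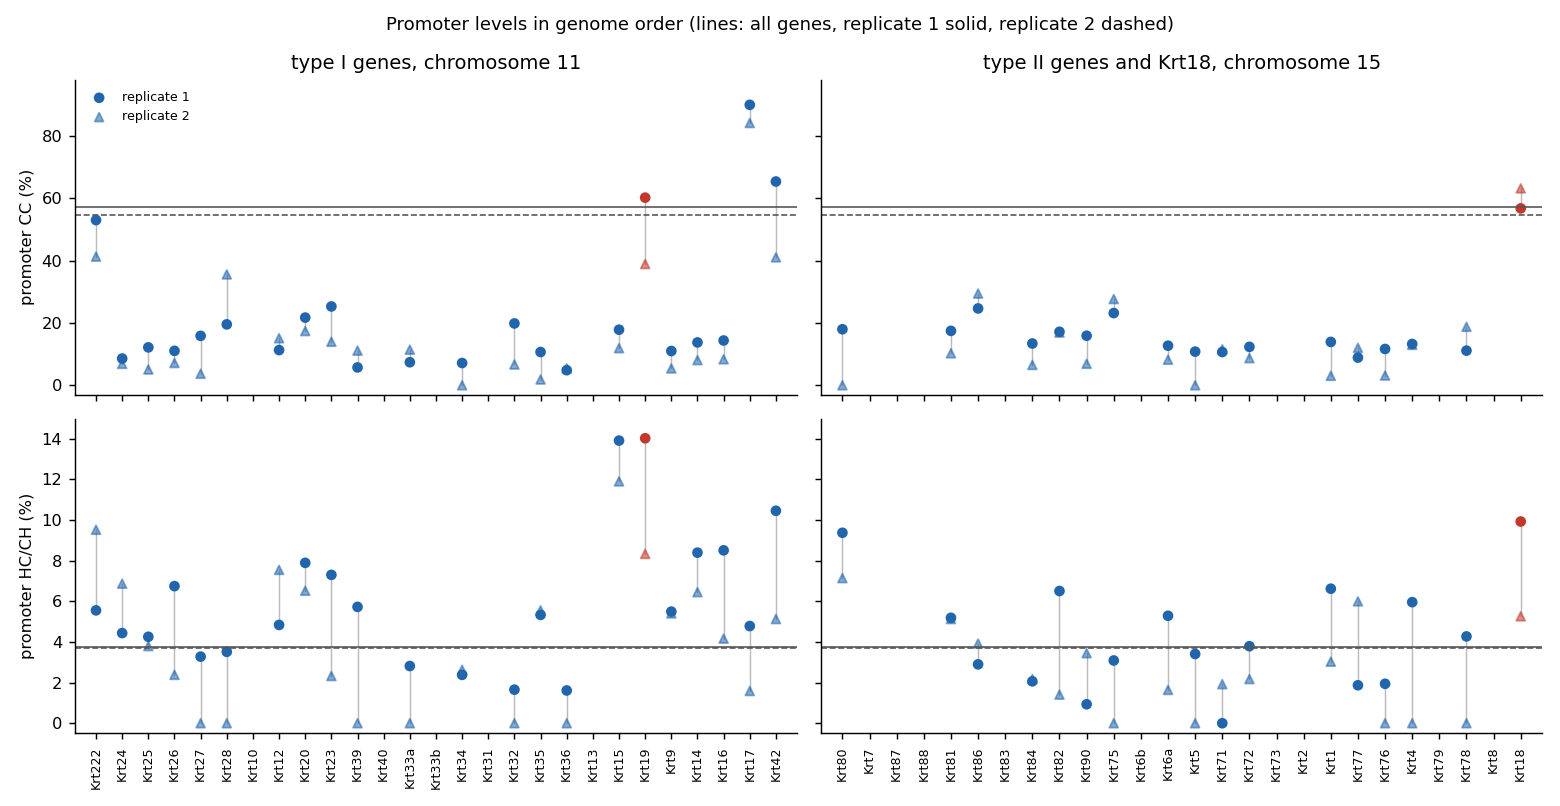
Promoter CC and HC/CH levels (%) of the measured keratin genes are drawn in genome order along the type I cluster on chromosome 11 and the type II cluster on chromosome 15, with a marker for each replicate and lines for all genes. Krt17 (89.95% and 84.1% CC) lies between Krt16 (14.4% and 8.33%) and Krt42 (65.4% and 41.0%), and on chromosome 15 no measured gene besides Krt18 exceeds 24.6% in replicate 1 or 29.4% in replicate 2.

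Of the 22 Krtap genes with at least 5 promoter sites in each replicate, 0 reached a promoter CC level of 50% in both, against 54.2% of all measured genes. The highest measured was Krtap3-2, a member of the high-sulfur proteins of the hair cortex, with 36.0% (CI 27.6–45.1%, 11 sites) and 45.2% (CI 27.3–64.0%, 5 sites). The lowest by rank were Krtap26-1 with 5.69% and 2.22% and Krtap5-2 with 5.88% and 6.45%. With fewer than 5 sites in replicate 2, Krtap19-1 had a promoter CC level of 73.9% (6 sites) and 55.6% (4 sites) and Krtap5-5 had 51.1% (8 sites) and 39.1% (4 sites), and both were named after their values were seen. Read pairs from near-identical Krtap copies cannot always be told apart by alignment, and how such pairs were assigned was not tested.

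Hydroxymethylation of 1 strand opposite an unmodified C ranged from 3.38% to 7.24% over the bodies of the 3 subsets and both replicates. In bodies, the HC/CH level was 5.31% and 7.24% for the simple-epithelial keratins (6.28% ± 1.37), 4.59% and 3.38% for the other keratins (3.99% ± 0.856) and 4.66% and 3.70% for the Krtap genes (4.18% ± 0.676), against 4.48% and 4.01% for all genes (4.24% ± 0.328). The means of the other keratins and the Krtap genes were within 1 SD of that of all genes. Among the simple-epithelial keratins, Krt8 (7.19% and 12.2%) alone was above all genes in both replicates. Krt18 had 3.28% and 2.44% and Krt19 had 4.24% and 4.87%, so the pooled value does not describe each gene. In promoters, the level was 12.4% (CI 9.83–15.3%) and 5.95% (CI 1.96–13.3%) for the simple-epithelial keratins, 4.78% and 3.48% for the other keratins and 2.61% and 2.13% for the Krtap genes, against 3.78% and 3.70% for all genes. The Krtap promoters were thus below all genes in both replicates (CIs of 2.24–3.03% and 1.43–3.04%), and the simple-epithelial promoters were above them, although the CI of replicate 2 included the level of all genes. Within 500 bp either side of the principal start, HC/CH was lower for Krt18 (1.01% and 2.70%) and, in replicate 1, for Krt19 (1.76% and 8.0%). Krt8 had 11.6% and 0 of 10 calls there. The upstream excess was thus not seen at the principal start of Krt18.

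HC/CH was also expressed as a share of the calls other than CC, a measure chosen after the levels were seen. In promoters this share was 28.5% and 11.1% for the simple-epithelial keratins (74 of 260 and 5 of 45 calls), 5.84% and 4.03% for the other keratins and 3.0% and 2.34% for the Krtap genes, against 8.83% and 8.19% for all genes. In bodies it was 10.2% and 10.2% for the simple-epithelial keratins, 5.62% and 4.01% for the other keratins and 5.48% and 4.24% for the Krtap genes, against 5.85% and 5.05% for all genes. On this scale both the other keratins (CIs of 5.32–6.40% and 3.16–5.05%) and the Krtap genes (CIs of 2.58–3.47% and 1.57–3.34%) lay below all genes upstream in each replicate.

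Among single genes, the promoter HC/CH level was above the pooled level of all genes in both replicates in 16 of 61 members, against 26.0% of all measured genes, and below it in 24 of 61, against 42.3%. Neither share departed much from that of all genes. The 16 were Krt18, Krt19, 13 of 37 other keratins and 1 of 22 Krtap genes, Krtap22-2. Krt19 had 14% (CI 9.73–19.3%) and 8.33% (CI 1.75–22.5%), Krt15 had 13.9% (CI 9.72–19.1%) and 11.9% (CI 3.98–25.6%), Krt42 had 10.5% and 5.13%, and Krt14 had 8.40% and 6.45%. Krt8 had 15.6% (15 of 96 calls) in replicate 1 and 0 of 10 calls in replicate 2, which allows up to 30%. The CIs of replicate 2 were wide for each of these genes. The level of Krt19 came from upstream of its outermost start, 2545 bp from its principal start.

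**Figure D4:**
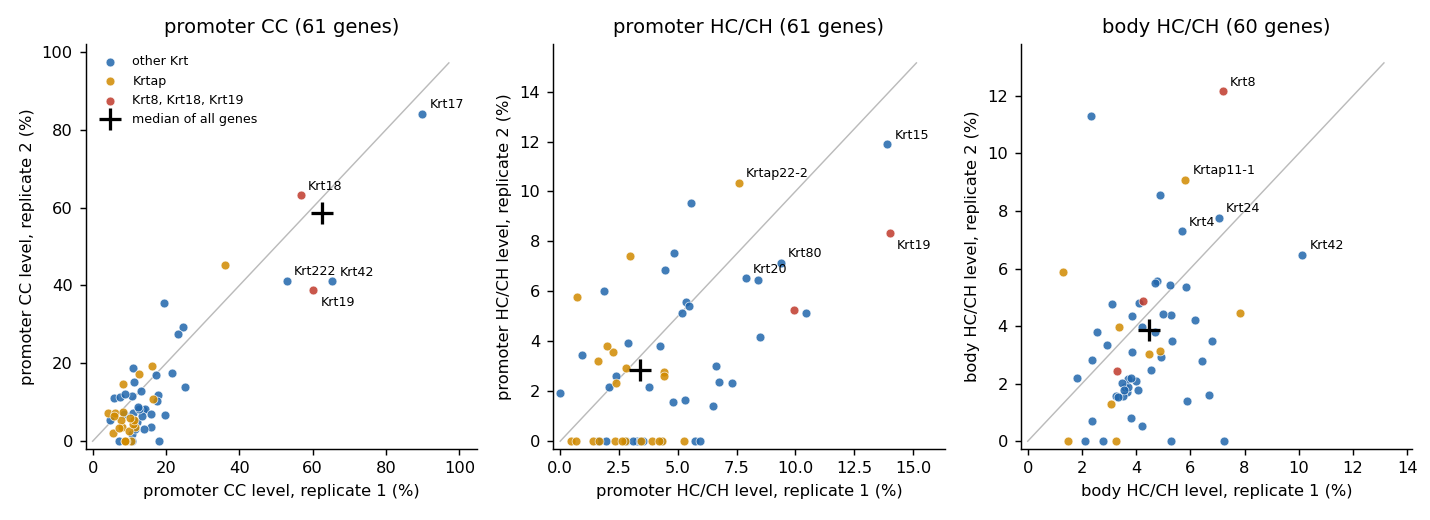
Each point is a gene with at least 5 CpG sites in the region in each replicate, with its level (%) in replicate 1 on the x axis and in replicate 2 on the y axis, coloured by subset, and a cross marks the median of all genes. In the promoter CC panel Krt17 (89.95% and 84.1%) lies far from most members, which are near the origin and away from the cross at 62.7% and 58.6%.

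In bodies, the HC/CH level was above the pooled level of all genes in both replicates in 14 of 60 members, against 37.8% of all genes, and below it in 29 of 60, against 40.3%. Krt8 had the highest body level by rank, with 7.19% (CI 5.75–8.87%) and 12.2% (CI 7.87–17.7%), and was above all genes in each replicate. Krt24, a type I keratin of the chromosome 11 cluster, followed with 7.05% (CI 5.17–9.35%) and 7.77% (CI 4.50–12.3%), then Krt42 with 10.1% (CI 8.13–12.4%) and 6.47% (CI 3.0–11.9%), Krtap11-1 with 5.81% and 9.09% and Krt4 with 5.67% and 7.31%. The CI of replicate 1 lay above the pooled level of all genes (4.48%) for Krt8, Krt24 and Krt42 but not for Krtap11-1 and Krt4.

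At the other end of the ranking, Krt36 had a body HC/CH level of 1.83% and 2.20%. Krtap19-3, Krt6b, Krt39 and Krt84 had 1.47%, 2.13%, 2.38% and 2.76% in replicate 1. In replicate 2, Krt39 had 0.719%, and no HC/CH call was made in the bodies of Krtap19-3, Krt6b and Krt84, which allows up to 12%, 6.12% and 2.10%. Krt36, Krt39 and Krt84 are hair keratins, and Krt6b is a keratin of the wound edge and the hair follicle. Krt18 lay below all genes (3.28% and 2.44%), while Krt19 had 4.24% and 4.87%. The levels of the partners Krt8 and Krt18 thus lay on opposite sides of that of all genes in both replicates. Their CIs did not overlap in replicate 1 (5.75–8.87% and 1.96–5.14%) but did in replicate 2. The CI of Krt18 in replicate 1 included the level of all genes (4.48%), so its place below all genes is not resolved. CC made up 49.6% and 30.5% of Krt18 body calls, and HC/CH as a share of the other calls was not computed for single genes.

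The desmosomal and cornified envelope genes had a median body HC/CH level of 4.89% and 4.84%. Of these, 7 of 10 were above the pooled level of all genes in both replicates, against 37.8% of all genes. Those of the epidermal differentiation complex had 1.66% and 1.28%, and all 9 measured genes were below, against 40.3% of all genes. The other keratins, with medians of 4.10% and 2.82%, and the Krtap genes, with 3.37% and 3.12%, lay between these lists, near the non-keratin intermediate filament genes (4.16% and 3.55%) and below all genes (4.48% and 3.88%). These values are descriptions of lists and were not tested against each other.

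The Krtap genes were ranked over promoter and body together, since few had enough sites in the body. Krtap22-2 was highest in HC/CH, with 6.94% (CI 3.38–12.4%) and 8.82% (CI 1.86–23.7%), followed by Krtap2-4 with 4.19% and 5.77% and Krtap17-1 with 5.00% and 4.17%. At the lower end stood Krtap19-1, with 0 of 122 and 0 of 57 calls, which allows up to 2.46% and 5.26%, then Krtap19-3 (0.971% in replicate 1) and Krtap21-1 (1.57% in replicate 1), both with no HC/CH call in replicate 2. The CC level of Krtap19-1 over both regions was 54.9% and 52.6%.

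Around gene starts, the rise of CC seen in all genes was small in the other keratins. In bins of 500 bp, the CC level of the first 500 bp of the body was 27.1% and 26.5% for the other keratins, against 85.8% and 84.3% for all genes and 85.8% and 67.5% for the simple-epithelial keratins. The last value rested on 4 sites of Krt18, 2 of Krt19 and 1 of Krt8. HC/CH had its minimum in this bin for all genes, at 1.42% and 1.62%, against 4.94% and 4.63% in the outermost upstream bin. In the other keratins the same bin had 7.09% and 5.25%, above the 500 bp before (5.47% and 3.20%) and after (4.71% and 3.01%). As a share of calls other than CC, it was 9.72% and 7.14% in this bin for the other keratins and 10.0% and 10.3% for all genes.

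**Figure D5:**
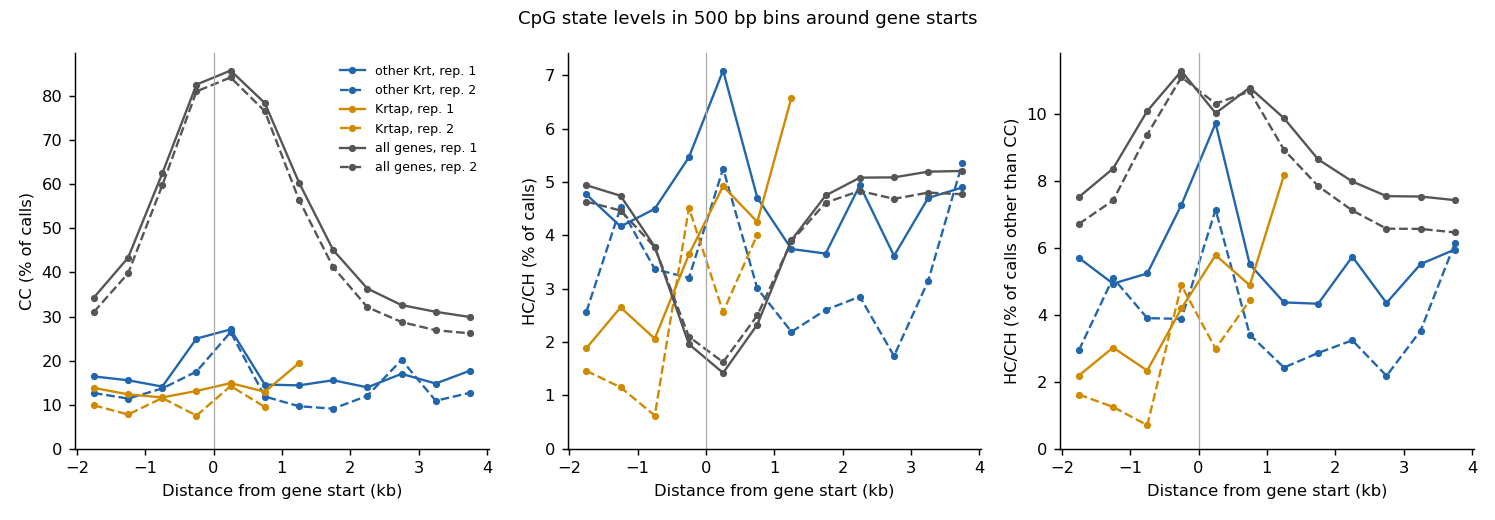
Lines give CC, HC/CH and HC/CH as a share of calls other than CC (all in %) in 500 bp bins by distance from the outermost gene start (kb), for the other keratins, the Krtap genes and all genes, with 1 line for each replicate and bins of at least 20 sites. The simple-epithelial keratins are not drawn. At the first 500 bp of the gene, the HC/CH line of the other keratins is at 7.09% and 5.25%, where that of all genes has its minimum of 1.42% and 1.62%.

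The HC/CH calls in the first 500 bp of the other keratins came from many genes. In replicate 1, 217 such calls fell on 42 genes, and the 5 genes with the most calls (Krt42, Krt27, Krt4, Krt12 and Krt20) held 36.4% of them. In replicate 2, 48 calls fell on 20 genes, and the first 5 (Krt4, Krt81, Krt12, Krt77 and Krt9) held 54.2%. Krt4 and Krt12 were in both lists. The level of Krt4 was 13.9% and 11.6% at 13 sites in each replicate, that of Krt12 was 13.9% and 6.45% and that of Krt42 was 16.0% and 3.85%. In Krt222, whose first 500 bp were unmodified in most calls, it was 4.80% and 2.41%. Within this bin, Krt4, Krt12 and Krt42 thus had both an intermediate CC level and HC/CH above the subset in replicate 1, and of the 3 genes only Krt4 had HC/CH above 10% in replicate 2. Krt79 was like them in replicate 1 (38.9% CC and 13.9% HC/CH). So was Krt77 (49.4% CC), although its HC/CH of 7.41% was only just above the subset. In replicate 2, 3 of 26 calls of Krt79 and 4 of 27 calls of Krt77 were HC/CH, at lower CC levels than in replicate 1. Krt27, Krt20, Krt71, Krt72 and Krt2 were not like them in replicate 1. Krt27 and Krt20 had HC/CH of 15.5% and 10.3% at CC levels of 19.0% and 22.2% in replicate 1. In replicate 2 they had no HC/CH call, but only 22 and 20 calls, too few to exclude such levels. Krt71, Krt72 and Krt2 had CC levels of 62.1%, 49.5% and 54.2% in replicate 1, with HC/CH of 6.82%, 6.54% and 5.61%, below the subset. In replicate 2, 2 of 5 calls of Krt71 and 0 of 5 calls of Krt2 were HC/CH, each at 1 site. Krt72 had no site there, so replicate 2 held too few calls to repeat this comparison.

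The level of HM/MH, the state with hydroxymethylation opposite methylation, fell after correction for miscalls, and more so in replicate 1. The body level was 3.37% and 2.82% for the simple-epithelial keratins (3.1% ± 0.394), 4.29% and 2.56% for the other keratins (3.42% ± 1.23) and 5.02% and 3.46% for the Krtap genes (4.24% ± 1.10), against 4.11% and 2.64% for all genes (3.37% ± 1.04). Synthetic duplexes of state MM, with 2 sites, were called HM/MH at 4.51% in replicate 1 and 0.467% in replicate 2. These rates are shares of MM duplex calls, whereas the body levels are shares of all calls. After correction with the call rates of the duplexes of the same replicate, the body levels were 1.61% and 2.37% for the simple-epithelial keratins, 1.38% and 2.20% for the other keratins and 2.06% and 3.12% for the Krtap genes, against 1.48% and 2.28% for all genes. The Krtap genes were highest in both replicates with and without correction, by less than the difference between the replicates. By rank, Krtap11-1 had the highest body level (7.56% and 9.09%), followed by Krt40 (5.36% and 5.70%) and Krt26 (6.49% and 4.88%), keratins of the hair shaft and the inner root sheath.

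The body MC/CM level was 5.89% and 10.9% for the simple-epithelial keratins, 12.2% and 13.3% for the other keratins and 12.8% and 12.9% for the Krtap genes, against 12.9% and 14.1% for all genes. It was thus lowest in the simple-epithelial keratins in both replicates, where CC was highest. As a share of calls other than CC, body MC/CM was 11.4% and 15.3% for the simple-epithelial keratins and 14.9% and 15.8% for the other keratins. It was 15.1% and 14.8% for the Krtap genes, so on that scale the simple-epithelial keratins were lowest in replicate 1 alone. By rank, the body MC/CM level was highest in Krt35 of the hair cortex (17.9% and 29.0%), Krt73 of the inner root sheath (15.6% and 21.6%) and Krt32 of the hair cuticle (14.9% and 23.3%). The median of the other keratins was 12.03% and 13.6%.

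The strand that carried hmC was not fixed relative to the direction of the gene. In bodies of the other keratins, hmC of HC/CH calls lay on the sense strand in 50.4% of calls (CI 47.9–52.9%) in replicate 1 and 53.5% (CI 47.5–59.5%) in replicate 2. Both intervals include equal shares. In the bodies of the Krtap genes it was 48.9% and 37.5% (CIs of 41.2–56.5% and 21.1–56.3%). Exons of the other keratins had HC/CH levels of 4.99% and 3.90% and introns had 4.26% and 2.90%, and CC levels of 20.5% and 17.7% against 16.4% and 13.8%. Exons of the other keratins were above introns in both measures and both replicates, by less than the difference between replicates for HC/CH. In the simple-epithelial keratins the order of HC/CH was the opposite, with 4.04% and 5.77% in exons and 6.32% and 8.30% in introns. In the Krtap genes it was 4.95% and 3.51% in exons and 2.92% and 5.15% in introns, so that the replicates differed in order.

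Promoter and body of the same gene were then compared within each replicate with Fisher's exact test (two-sided, Benjamini-Hochberg adjustment over the 13084 genes with at least 5 sites in each region and replicate). A read pair can span several CpG sites, so calls are not independent, and these p-values cover counting error at most. A gene was called where the adjusted p was below 0.05 in both replicates with the same direction. CC was higher in the promoter in 2 of 40 tested members, against 57.1% of all tested genes, and lower in 4 of 40, against 8.18%. From 1 replicate alone, 5 members (replicate 2) or 10 members (replicate 1) were higher, against 60% and 69.3% of all tested genes, and 6 or 10 were lower, against 10.9% and 14.2%. With a promoter of 1 kb either side of the start, 7 of 42 members were higher, with Krt8, Krt18, Krt222, Krt71, Krt4 and Krt79 beside Krt17, against 79.8% of all tested genes, and 5 of 42 were lower, against 3.5%.

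The first group held Krt17, with 89.95% against 26.2% and 84.1% against 16.3% (Fisher's exact test, adjusted p = 2.82e-58 and 1.70e-16), and Krt86, with 24.6% against 14.7% and 29.4% against 13.3% (adjusted p = 0.00460 and 0.0383). The second group held Krt14, Krt1, Krt12 and Krt90. Krt14 had 13.7% against 37.4% and 8.06% against 51.9% (Fisher's exact test, adjusted p = 8.42e-08 and 4.51e-07), and Krt1 had 13.9% against 22.2% and 3.03% against 39.5% (adjusted p = 0.00300 and 2.07e-05). Krt12 of the cornea had 11.3% against 23.4% and 15.1% against 33.5% (Fisher's exact test, adjusted p = 2.18e-05 and 0.0124), and the type II gene Krt90 had 15.9% against 29.9% and 6.90% against 30.1% (adjusted p = 0.00282 and 0.0116). These 4 genes were thus more modified upstream than in the body, while Krt5, the partner of Krt14, was not called in either direction. With a promoter of 1 kb either side of the start, the calls of Krt86, Krt12 and Krt90 ended, and those of Krt17, Krt14 and Krt1 were made again.

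For HC/CH, 0 of 40 members were called higher in the promoter, against 0.26% of all tested genes, and 0 lower, against 0.604%. By unadjusted p below 0.05 in both replicates, the counts were also 0 and 0 members, against 2.02% and 5.77% of all tested genes. In replicate 1 alone, Krt19 (Fisher's exact test, adjusted p = 2.25e-05), Krt15 (adjusted p = 0.000141), Krt18 (adjusted p = 0.00149) and Krt80 were higher in the promoter, against 5.63% of all tested genes, and Krtap16-1 was lower, against 20.8%. In replicate 2, where the promoters of Krt19, Krt15 and Krt18 had 36, 42 and 38 calls, the adjusted p was 0.848, 0.587 and 0.976 by Fisher's exact test. The higher promoter levels of these genes thus passed the threshold in replicate 1 alone. The promoter of Krt19 in this test lay upstream of its outermost start, 2545 bp from the principal start.

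Across genes, which share a library and are not independent, the replicates gave a Spearman's rho of 0.579 for promoter CC (n = 61), 0.832 for body CC (n = 60), 0.443 for promoter HC/CH, 0.375 for body HC/CH, 0.274 for body HM/MH and -0.0604 for promoter HM/MH. These values pool subsets whose levels differ, and for promoter CC rho was 0.509 within the other keratins (n = 37) and 0.285 within the Krtap genes (n = 22). For promoter HC/CH it was 0.472 and 0.0647 within the same lists. Within the 48 measured bodies of the other keratins, it was 0.8 for CC, 0.306 for HC/CH and 0.153 for HM/MH.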

How the data were processed

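SCoTCH-seq was run by the authors on genomic DNA of 2 replicates of E14 mESCs, with synthetic duplexes of known CpG state, methylated lambda DNA and unmethylated pUC19 read alongside in each library. Read pairs were filtered by the authors with Cutadapt (4.6 in the submitters' processing notes), aligned to GRCm38 (mm10) with BSBolt and freed of duplicates with Picard (3.1.1), and every remaining pair gave a call of the state of its CpGs. For each replicate and CpG site, the deposited files hold the count of calls of every state and the percent of the site's calls that this count makes up. Sites with fewer than 5 calls in a replicate, and those in blacklisted regions, were discarded by the authors before deposit. The depth per replicate was 141159011 and 31102023 calls on the 19 autosomes, with a median of 10 and 6 calls per site, and a single site is therefore coarse. The deposited counts were not corrected by the duplexes.

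Counts were summed over the sites of a region in Python 3.11.15 with pandas 2.3.3 and NumPy 2.4.6. Tests and intervals used SciPy 1.17.1, and figures Matplotlib 3.10.9. All sites lay on the C of a CpG of GRCm38.p6. Genes and principal (APPRIS) transcripts were those of GENCODE vM21. For levels of single genes, a site in the promoter of 1 gene and the span of a neighbour was counted for both. For levels pooled over a subset or over all genes, a promoter site inside the span of any gene of that set was counted as body alone. With a promoter of 1 kb either side of the start, such a site was counted as promoter alone. All genes include the members. Filtering per replicate left fewer sites in replicate 2, and short paralogous genes depend on how well read pairs align. Corrected levels were obtained by solving the linear equations of the call rates of the duplexes, with the true state of each duplex site taken as its most frequent call.

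Fisher's exact test was run per gene and replicate, with Benjamini-Hochberg adjustment over all 13084 tested genes. The test was tried on simulated counts, in which large shifts were mostly called but few HC/CH differences of the size seen in these genes, so that the absence of HC/CH calls says little. The genes named were Krt8, Krt18 and Krt19, markers of epithelial layers and appendages, and the highest or lowest genes in promoter CC, body HC/CH, HM/MH and MC/CM, and for Krtap genes in HC/CH over both regions, ranked on the replicate less favourable to the ranking among genes with at least 5 sites in each. Any other gene was named after its values were seen or because it was called. The members, lists and comparisons were chosen with earlier results of these data known. The alternatives were a minimum of 10 calls per site, equal weight of sites or of genes, sites in both replicates, a promoter of 1 kb either side of the start, correction, other minimum numbers of sites, and leaving out each replicate. The start of the principal transcript was added after the data were seen.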

Additional observations from a re-analysis of the deposited data

How the results depend on the processing

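Across the alternatives, 85 values moved by no more than the spread between replicates, or by no more than 1.5 times for counts of genes, and 19 moved further. With 2 replicates, a level without 1 of them always lies within 1 SD of the mean. The levels without a replicate could thus only fall among the 85, and they say nothing on stability. With a promoter of 1 kb either side of the start, the promoter CC level was 61.6% for the simple-epithelial keratins and 19.8% for the other keratins, the body HC/CH level was 5.00% for the Krtap genes, and 7 of 42 tested members were called higher in promoter CC, with Krt17 but not Krt86 among them, against 79.8% of all tested genes. With a minimum of 10 calls per site, the promoter CC level of the other keratins was 11%, the body HC/CH level of the simple-epithelial keratins was 8.29%, and the body HM/MH level was 5.23% for these and 5.59% for the Krtap genes, but replicate 2 then rested on 22, 3 and 6 sites for the other keratin promoters, simple-epithelial bodies and Krtap bodies. Under this minimum no simple-epithelial promoter level and no Fisher's exact test of a member could be obtained. The HM/MH level of simple-epithelial bodies was 3.59% on sites in both replicates. Corrected by the duplexes, the body HM/MH level was 1.99% for the simple-epithelial keratins, 1.79% for the other keratins and 2.59% for the Krtap genes. With at least 10 sites per region and replicate, 1 of 8 tested members was called higher and 0 lower in promoter CC, against 73.1% and 6.31% of all tested genes. Leaving out each replicate in turn gave 5 to 10 of 40 members higher in promoter CC (60% to 69.3% of all tested genes) and 6 to 10 lower (10.9% to 14.2%). For HC/CH it gave 0 to 4 higher (0.65% to 5.63%) and 0 to 1 lower (0.696% to 20.8%). The larger counts came from replicate 1 alone. The cause of these moves was not tested. The start of the principal transcript, chosen after the data were seen, moved none of these values beyond the limits. No paired analysis was possible because the replicates belong to 1 group.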
